A study of Mus musculus with 8 samples.

Results

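The MYC and MXD network is the set of transcription factors that share the partner MAX, and 9 of its genes were followed here through 8 RNA-seq libraries of MEFs (mouse embryonic fibroblasts, connective tissue cells grown from embryos). The members, Myc, Mycn, Max, Mxd1, Mxd3, Mxd4, Mxi1, Mnt and Mga, were taken by symbol from a table of 49492 genes, in which each had 1 row. All 9 passed the filter on low values, which kept 16232 genes. The cells carried floxed Pontin alleles, were immortalized by the 3T3 protocol, and stably expressed a Flag-tagged Pontin from a lentivirus, either the wild-type form (WT) or a form with 2 arginines changed to alanine (RA). Cre virus deleted the endogenous gene in both. Pontin, the product of Ruvbl1, belongs to the AAA+ ATPases, works in chromatin remodellers and is a known partner of MYC. Each genotype was grown with or without glucose, which gave 4 groups of 2 libraries: WT in normal medium, starved WT, RA in normal medium and starved RA. The starvation time for RNA-seq is not given in the sources used here. Each genotype was 1 selected line, so line and Pontin form cannot be told apart. The methods say in general terms that experiments were repeated independently, but not whether the 2 libraries of a group came from separate cultures, so the p-values measure only the spread between these libraries.

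MYC and its relative MYCN are leucine zipper proteins that pair with MAX, bind the E-box CACGTG and raise the expression of genes for ribosomes, metabolism and cell division. The MXD proteins (MXD1, MXD3, MXD4 and MXI1) and MNT also pair with MAX at E-boxes, but bring in the SIN3 corepressor and its histone deacetylases and lower transcription. MGA pairs with MAX too and is the scaffold of the Polycomb complex PRC1.6, which keeps germline genes silent. In fibroblasts MYC is known as a growth factor response gene, and MNT as the antagonist present in both resting and cycling cells.

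Promoter sequences from RefSeq on the GRCm38.p6 build were matched to 8 of the 9 members, all but Myc. They are shown for the 3 antagonists with the largest genotype by medium differences below and for Max, the shared partner. Each runs 5′ to 3′ on the strand of its gene, and capitals mark the E-box CACGTG. The first 3 hold the 250 bases before the RefSeq start, at chr11:74830674-74830923 on the plus strand for Mnt, and on the minus strand at chr6:86669160-86669409 for Mxd1 and chr5:34187711-34187960 for Mxd4. The Max sequence, chr12:76962229-76962428 on the minus strand, holds 180 bases before the start and 20 after it.
Mnt: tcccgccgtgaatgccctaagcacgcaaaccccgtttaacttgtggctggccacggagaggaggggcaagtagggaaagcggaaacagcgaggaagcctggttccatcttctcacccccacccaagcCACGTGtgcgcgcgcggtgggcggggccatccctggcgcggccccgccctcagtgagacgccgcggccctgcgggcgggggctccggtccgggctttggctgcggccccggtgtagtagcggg
Mxd1: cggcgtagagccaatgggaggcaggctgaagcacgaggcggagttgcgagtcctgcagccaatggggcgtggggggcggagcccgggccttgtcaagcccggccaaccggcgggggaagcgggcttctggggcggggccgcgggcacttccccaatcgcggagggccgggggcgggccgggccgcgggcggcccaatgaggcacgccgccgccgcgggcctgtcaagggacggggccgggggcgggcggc
Mxd4: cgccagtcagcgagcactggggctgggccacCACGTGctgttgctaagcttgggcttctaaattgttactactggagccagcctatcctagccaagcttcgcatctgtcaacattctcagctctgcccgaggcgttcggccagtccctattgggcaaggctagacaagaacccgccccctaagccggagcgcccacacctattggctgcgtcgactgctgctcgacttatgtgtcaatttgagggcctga
Max: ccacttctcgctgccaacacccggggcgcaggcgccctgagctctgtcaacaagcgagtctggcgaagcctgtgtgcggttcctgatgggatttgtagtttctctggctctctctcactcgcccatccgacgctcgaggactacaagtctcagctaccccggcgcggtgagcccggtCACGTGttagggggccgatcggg

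The E-box began 123 bases before the start in Mnt and 219 bases before it in Mxd4, and spanned the start of Max. The window of Mxd1 held none of the 3 motifs searched. In windows of 300 bases, searched on both strands, 3 of the 10 promoters of the members held CACGTG, against 7.15% of all 32851 promoters and 9.68% of the promoters of tested genes. Of the 39 promoters of a list of MYC activated targets, 10 held it. The FOXO motif GTAAACA was found in 1 promoter of Mxi1, against 3.65% of all promoters, and the E2F motif TTTGGCGC at 2 places in the promoter of Mycn, against 0.514%. A match of letters is a description of the window, not a bound site.

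Values are normalized read counts, reads over a library size scaled by the authors, on a common total, over 43205841 to 56363034 reads per library. In single libraries a value of 3 reads lay between 0.0548 and 0.069. Differences are log2 differences of (value + 1), which understate the change of low genes, with Benjamini-Hochberg adjusted p-values from limma over all tested genes, and calls were made at adjusted p-values under 0.05. Ruvbl1, the targeted gene, measured 28.0 ± 0.58 (SD, n = 2) in WT and 34.4 ± 3.4 in RA cells in normal medium, and 28.2 ± 0.38 and 44.0 ± 1.5 under starvation. Both the introduced and the endogenous transcript encode Pontin, and the sources used here do not give the introduced sequence. Reads of the introduced transcript may be counted here, so these values do not check the deletion. The summed values of 11 fibroblast marker genes ran from 10234 to 10548 in normal medium, from 5626 to 5725 in starved WT and from 7243 to 7259 in starved RA, and Lum was near 0. The sums for 8 immune, 6 epithelial and 5 endothelial markers were at most 25.2, 3.21 and 9.43, with Cd3e, Krt5 and Krt14 at 0 in every library. The highest of these genes was the immune marker Csf1r, at 10.4 to 20.1. Starved WT was called higher than WT in normal medium for Csf1r, for Cd68 (2.52 and 2.06, then 4.51 and 4.13) and for the endothelial marker Kdr (2.26 and 1.73, then 6.24 and 6.54). In RA the rises of Csf1r and Kdr were called and Cd68 was not. Tek, also endothelial, passed the filter only through starved libraries, so its rise in WT was fixed by it. The epithelial marker Cdh1 passed the filter only through the starved RA libraries (1.18 and 1.16), so its rise in RA was fixed in the same way. The part of these shifts in the results was not tested. In bulk samples, fewer cells of a type and less RNA per cell cannot be told apart.

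Starvation moved most members in WT cells: 5 rose (Myc, Max, Mxd1, Mnt, Mga) and 2 fell (Mxd3, Mxd4). Mycn reached a value of 1 in only 3 libraries, all in normal medium, so counts are read over the 8 members at 1 or more in every library, of which 7 were called. Among all tested genes 78.6% were called, 39.3% higher and 39.2% lower. In RA cells 7 of these 8 were called as well, 4 higher (Myc, Mxd1, Mnt, Mga) and 3 lower (Mxd3, Mxd4, Mxi1), against 68.7% of all tested genes, 35% higher and 33.7% lower. The median difference of the 9 members was 0.42 in WT, beside 0.005 for all tested genes, and 0.06 in RA, beside 0.01. Both medians include Mycn, whose fall was fixed by the filter on low values and can only have lowered them. The share of members called was therefore near that of all genes, and the members are described by their levels and by the differences between genotypes.

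Myc (chr15:61985391-61990374 on GRCm38, plus strand), the central activator, had the highest value of the 9 in every library. In WT cells it measured 106 and 107 in normal medium and 188 and 199.6 under starvation. In RA cells it measured 134 and 142 in normal medium and 271 and 269 under starvation. The 4 groups did not overlap, and both the starved state and the RA line were the higher side of each pair. Starvation raised Myc by 0.86 ± 0.04 (SE) in WT (adjusted p = 3.77e-12) and by 0.96 ± 0.04 in RA (adjusted p = 1.87e-12). RA exceeded WT by 0.37 in normal medium (adjusted p = 1.15e-05) and by 0.48 under starvation (adjusted p = 2.97e-08). The responses of the lines differed by 0.11 ± 0.06, which did not pass the test (adjusted p = 0.14), although it passed with values rescaled to total reads (0.18, adjusted p = 0.0112), with quantile normalization (0.17, adjusted p = 0.0177) and without RA in normal medium replicate 2 (0.15, adjusted p = 0.0441).

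Mycn (chr12:12936093-12941914, minus strand), the relative of Myc best known from neural and embryonic tissue, was close to the limit of detection. It measured 1.30 and 1.41 in WT and 0.874 and 2.09 in RA cells in normal medium. Under starvation it was at 0 and 0.110 in WT and at 0.196 and 0.206 in RA. These starved values rest on 0, 6, 10 and 10 reads, against 38 to 108 reads in normal medium. All counts of Mycn are even, and where both mates of a pair were counted they stand for fewer read pairs. A count of 0 in that library allows a value of up to 0.0629 at 3 reads, or 0.126 where both mates of a pair were counted. The groups in normal medium and under starvation did not overlap. Since Mycn passed the filter only through libraries in normal medium, a fall under starvation was fixed by the filter, and its differences (-1.16 in WT) are given without a test. The starved lines differed by 0.19 (adjusted p = 0.387), but by 1.06 with a pseudocount of 0.1 (adjusted p = 0.0416). Of 24 alternatives, 22 left this difference uncalled.

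Max (chr12:76937269-76962201, minus strand), the obligate partner, rose under starvation in WT cells. It measured 55.6 and 58.9 in WT in normal medium and 80.1 and 81.8 under starvation, a rise of 0.49 ± 0.05 (adjusted p = 4.07e-08). The RA libraries measured 58.5 and 60.5 in normal medium and 63.4 and 60.6 under starvation. Starved RA libraries thus lay just above those in normal medium and well under starved WT. The RA difference of 0.06 ± 0.05 was not called (adjusted p = 0.28). The difference between the 2 responses was -0.43 ± 0.07 (adjusted p = 4.26e-05).

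**Figure D1:**
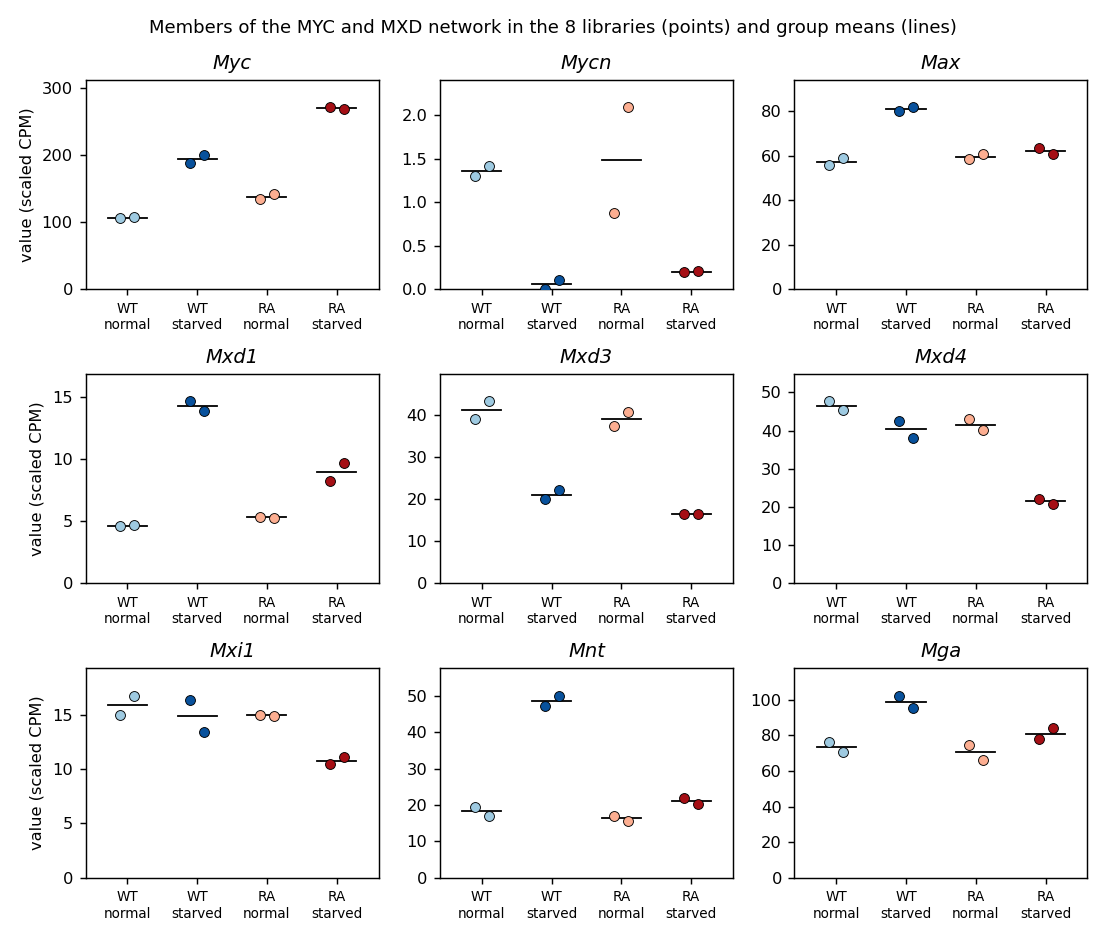
Normalized read count (linear axes from 0, 1 panel per gene) of the 9 members in each library (points) of the 4 groups, with group means as lines. Myc was highest in starved RA (271 and 269), whereas Max, Mxd1, Mnt and Mga were highest in starved WT.

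Of the MXD genes, Mxd1 was the one that rose. Mxd1 (chr6:86647042-86669161, minus strand), a repressor known from differentiating cells, measured 4.61 and 4.72 in WT in normal medium and 14.7 and 13.9 under starvation. In RA cells it measured 5.33 and 5.31 in normal medium and 8.23 and 9.75 under starvation. Both starved groups lay above all libraries in normal medium, and starved RA lay below starved WT. The rise was 1.43 ± 0.10 in WT (adjusted p = 9.46e-10) and 0.66 ± 0.10 in RA (adjusted p = 2.55e-05), and the responses differed by -0.78 ± 0.15 (adjusted p = 2.94e-04).

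Mxd3 (chr13:55325168-55329823, minus strand), the MXD gene known for expression in S phase cells, fell. It measured 39.0 and 43.2 in WT in normal medium and 20.03 and 22.2 under starvation, and 37.3 and 40.7 in RA in normal medium and 16.5 in both libraries under starvation. The lines overlapped in normal medium and did not overlap when starved. The fall was -0.93 ± 0.07 in WT (adjusted p = 1.95e-09) and -1.19 ± 0.07 in RA (adjusted p = 1.34e-10). The difference of -0.26 ± 0.10 between the responses passed narrowly (adjusted p = 0.0383) and was lost with total-read scaling (-0.19, adjusted p = 0.11) and in 5 of the 8 fits that left out 1 library (adjusted p from 0.0761 to 0.182). Of its exon bases, 4.43% overlap Prelid1 on the other strand, whose mean was 341 and 254 in WT and 337 and 200 in RA before and after starvation. The libraries do not mark strand, so reads of the shared stretch cannot be assigned.

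Mxd4 (chr5:34173883-34187720, minus strand), a repressor expressed in resting cells, fell mainly in the RA line. It measured 47.7 and 45.4 in WT in normal medium and 42.5 and 38.1 under starvation. In RA cells it measured 43.0 and 40.1 in normal medium and 22.2 and 20.8 under starvation. The starved RA libraries stood well under the other 6, whose groups lay close to each other. The fall was -0.92 ± 0.06 in RA (adjusted p = 1.04e-09). It was -0.20 ± 0.06 in WT (adjusted p = 0.00737), a call lost without WT in normal medium replicate 1 (-0.17, adjusted p = 0.0674) or without starved WT replicate 2 (-0.13, adjusted p = 0.119). The responses differed by -0.72 ± 0.09 (adjusted p = 5.36e-06). Antisense gene Gm42846 shares 6.06% of the Mxd4 exon bases, and its mean was 13.5 and 12.1 in WT and 11.8 and 5.77 in RA before and after starvation. As for Mxd3, reads of the shared stretch cannot be assigned, so the values of these 2 genes may hold the same reads.

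Mxi1 (chr19:53310518-53375810, plus strand), an MXD family repressor under another symbol, was lowest in starved RA. In WT it measured 14.96 and 16.7 before and 16.3 and 13.4 after starvation. The RA libraries measured 14.99 and 14.9 in normal medium and 10.4 and 11.1 under starvation. The first 3 groups overlapped, and the starved RA libraries lay under all of them. The RA fall was -0.44 ± 0.09 (adjusted p = 5.67e-04), while WT differed by -0.09 ± 0.09 (adjusted p = 0.388). The difference between the responses, -0.35 ± 0.13 (adjusted p = 0.0391), was lost in 6 of the 8 fits that left out 1 library, with total-read scaling (adjusted p = 0.0996), and with edgeR (adjusted p = 0.0507) or DESeq2 (adjusted p = 0.0526) on recovered reads.

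Mnt (chr11:74830920-74845725, plus strand), the broad antagonist of MYC, showed the most negative interaction of the 9. It measured 19.4 and 17.1 in WT in normal medium and 47.3 and 50.1 under starvation. In RA cells it measured 17.1 and 15.5 in normal medium and 21.9 and 20.3 under starvation. Starved WT stood apart from the other 6 libraries, which all lay between 15.5 and 21.9. Mnt rose 2.67-fold in the WT means (1.37 ± 0.07, adjusted p = 2.24e-11) and 1.29-fold in the RA means (0.35 ± 0.07, adjusted p = 5.17e-04). The responses differed by -1.02 ± 0.11 (adjusted p = 6.23e-07), and Mnt ranked 109 from the lowest of 16232 genes in the difference between starved lines.

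Mga (chr2:119897228-119969581, plus strand), the PRC1.6 scaffold, measured 76.4 and 70.8 in WT in normal medium and 102 and 95.5 under starvation. In RA cells it measured 74.8 and 66.2 in normal medium and 77.9 and 84.2 under starvation. Starved WT was highest, starved RA came next, and the lines overlapped in normal medium. The rise was 0.42 ± 0.06 in WT (adjusted p = 5.44e-06). It was 0.20 ± 0.06 in RA (adjusted p = 0.00693), a call lost without RA in normal medium replicate 2 (0.11, adjusted p = 0.115) or without starved RA replicate 2 (0.15, adjusted p = 0.0976). The difference of -0.22 ± 0.08 between the responses (adjusted p = 0.0369) was lost in 4 of the 8 fits that left out 1 library, with total-read (adjusted p = 0.183) or quantile scaling (adjusted p = 0.147) and with edgeR (adjusted p = 0.0765).

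In normal medium the lines differed in 1 of the 8 detected members, Myc, which was higher in RA. The other 7 had differences between -0.16 (Mxd4, adjusted p = 0.13) and 0.16 (Mxd1, adjusted p = 0.367). Among all tested genes 9.63% were called, 6.68% higher and 2.95% lower in RA. This split depended on the scaling: 69.4% of the calls were higher as deposited, 58.5% with median-ratio, 52.6% with quantile and 40.5% with total-read scaling. The call on Myc held under each of these.

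Under starvation all 8 detected members were called between the lines, 1 higher in RA (Myc) and 7 lower (Max, Mxd1, Mxd3, Mxd4, Mxi1, Mnt, Mga), against 62.9% of all tested genes, 30.8% higher and 32.1% lower. The median over the 9 members was -0.38, beside -0.008 for all tested genes. The lowest was Mnt at -1.17 ± 0.07 (adjusted p = 6.49e-10), at 0.433 times its WT mean. It was followed by Mxd4 at -0.87 ± 0.06 (adjusted p = 3.24e-09, 0.534 times) and Mxd1 at -0.62 ± 0.10 (adjusted p = 5.88e-05, 0.628 times). Mxi1 (-0.43), Max (-0.38), Mxd3 (-0.33) and Mga (-0.29) followed, with adjusted p from 2.39e-06 to 8.38e-04. These comparisons share their starved libraries with the responses above, so they are not separate evidence.

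The test of the difference between the 2 responses called 7 of the 8 detected members, all of them lower in RA than in WT, against 50.6% of all tested genes, 24.5% higher and 26.1% lower. The median was -0.35 over the 9 members and -0.01 over all tested genes. Mnt, Mxd1, Mxd4 and Max kept the call under every scaling, filter, count test and omitted library. Mxd3, Mxi1 and Mga lost it under some of these. Without the filter on low values, or without the mean-variance trend, 4 members were called.

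**Figure D2:**
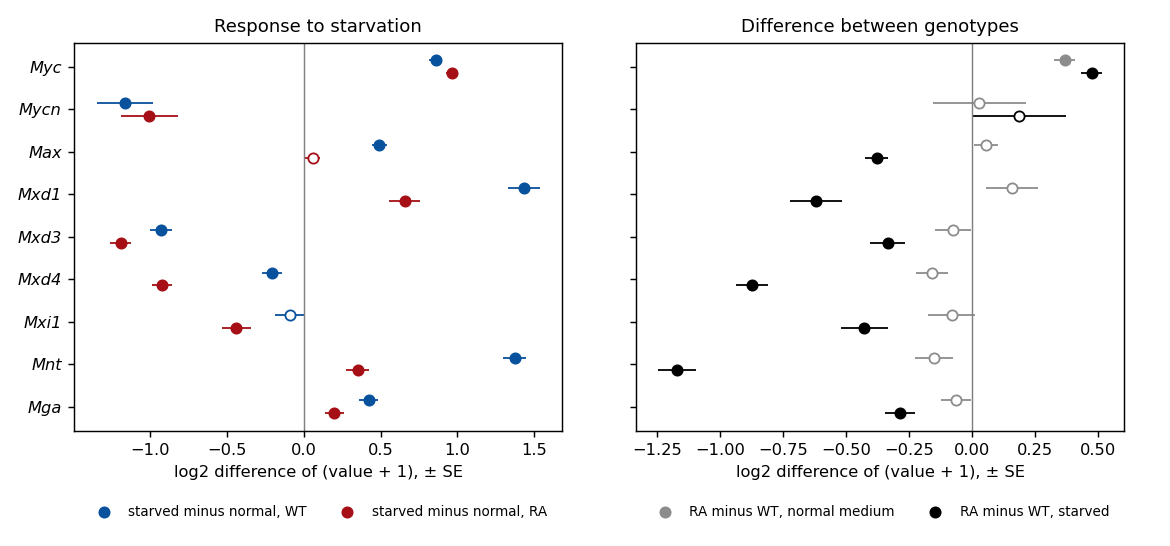
Log2 difference of (value + 1) with its SE for the 9 members, starved against normal medium in each line (left) and RA against WT in each medium (right). The starved genotype difference lay below 0 for the antagonists, from -0.33 for Mxd3 to -1.17 for Mnt, and above 0 for Myc at 0.48.

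Levels of different genes were compared per kilobase of exon, again as normalized read counts. In WT in normal medium the order was Myc (39.2 ± 0.20, SD, n = 2), Mxd3 (17.3 ± 1.3), Max (15.9 ± 0.64), Mxd4 (5.48 ± 0.19), Mga (4.80 ± 0.26), Mnt (3.94 ± 0.35), Mxi1 (2.32 ± 0.19), Mxd1 (0.659 ± 0.011) and Mycn (0.412 ± 0.023). Neighbours in this order did not overlap between libraries, with the smallest gap between Mxd3, at 16.5 and 18.2, and Max, at 15.5 and 16.4. With the length of the longest coding transcript in place of all exons the order of the means was the same, but Mxd3 (29.4 to 32.6) and Max (28.6 to 30.3) overlapped. In starved WT, Mnt reached 10.5 ± 0.42, beside 8.91 ± 0.64 for Mxd3. The order of these 2 genes depended on the length used: by the longest coding transcript Mnt (10.6) lay below Mxd3 (15.9). In starved RA, Mnt at 4.56 ± 0.24 lay below Mxd3 at 6.97 ± 0.02, as it did by the longest coding transcript (4.59 and 12.4).

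The per-kilobase levels of the 5 antagonists (Mxd1, Mxd3, Mxd4, Mxi1 and Mnt) summed to 29.1 and 30.4 in WT in normal medium and, after starvation, to 28.2 and 28.6. In RA they summed to 27.5 and 28.2 in normal medium and to 17.0 and 16.8 under starvation. By the longest coding transcript the means were 51.1 and 42.9 in WT and 47.8 and 26.6 in RA, so the WT sum was near level by one length and lower after starvation by the other. The makeup of the sum moved: the share of Mxd3 went from 58.3% to 31.4% and that of Mnt from 13.3% to 37.1%. In RA the share of Mxd3 went from 59.1% to 41.2% and that of Mnt from 12.7% to 27.0%. By the longest coding transcript Mnt held 7.78% of the WT sum before and 24.7% after starvation, and 7.45% and 17.2% of the RA sum.

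Myc and Mycn together measured 39.6 ± 0.23 and 71.4 ± 2.9 per kilobase in WT and 51.3 ± 2.3 and 99.5 ± 0.70 in RA, before and after starvation. The ratio of this sum to that of the antagonists was 1.36 and 1.31 in unstarved WT, 2.46 and 2.57 in starved WT, 1.81 and 1.88 in RA in normal medium, and 5.88 in both starved RA libraries. No 2 groups overlapped. The ratio of transcripts says nothing of the proteins, and it depended on the gene length used, falling to 0.902, 1.93, 1.25 and 4.34 in the same order of groups with the longest coding transcript. The ratios are given as a description, with no test.

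**Figure D3:**
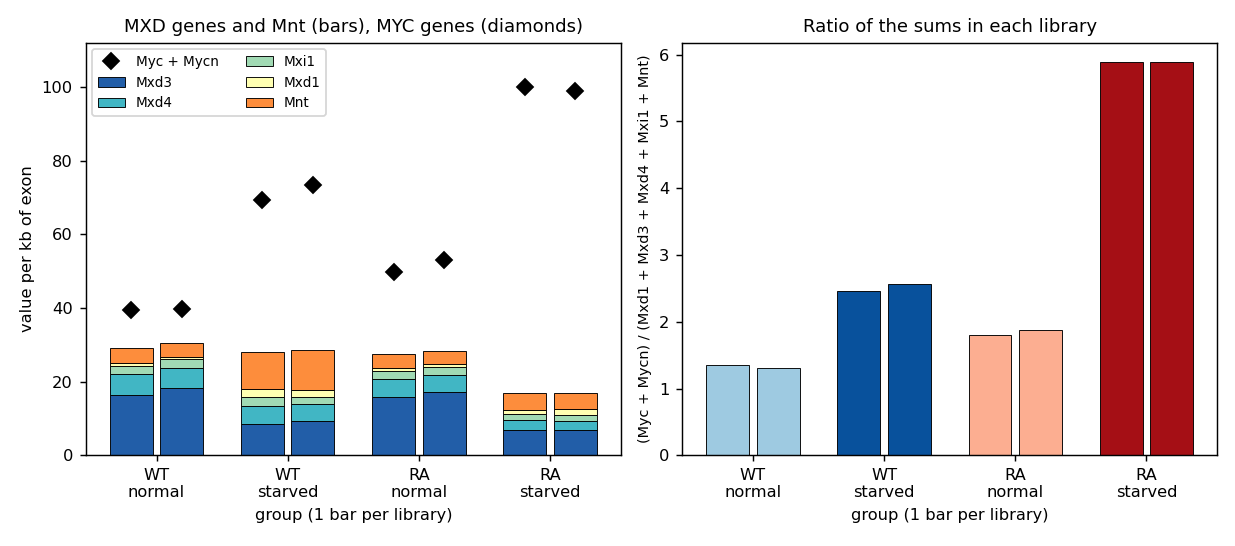
Left, stacked per-kilobase levels of the 5 antagonists (1 bar per library) with the sum of Myc and Mycn as diamonds. Right, the ratio of the sums in each library, from 1.31 in WT in normal medium to 5.88 in starved RA.

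The gene lists below are read against the shares of all tested genes given above, 39.3% higher and 39.2% lower in the WT response, 35% and 33.7% in the RA response, 30.8% and 32.1% between the starved lines, and 24.5% and 26.1% for the interaction. The medians over all tested genes were between -0.01 and 0.01 in each comparison. Genes of a list counted as rising, falling, higher, lower, positive or negative are those called in that direction. Of 5 other genes for MAX or MLX partners, 3 passed the filter. Mlxip encodes MONDOA, which with MLX senses glucose phosphate. It measured 67.1 ± 2.4 and 93.0 ± 0.61 in WT and 64.8 ± 0.44 and 69.6 ± 1.1 in RA before and after starvation (interaction -0.36, adjusted p = 1.10e-04). Mlx rose in WT (0.37, adjusted p = 6.95e-05), and its difference between the responses was -0.24 (adjusted p = 0.0407). Mycl, the remaining MYC gene, measured 2.0 and 1.89 in WT in normal medium and 1.30 and 1.53 under starvation, and 2.39 and 1.82 in RA in normal medium and 5.56 and 5.31 under starvation. The starved RA libraries stood above the other 6, with a rise of 1.06 in RA (adjusted p = 1.65e-06) and an interaction of 1.34 (adjusted p = 1.40e-05). Over these 3 genes the median interaction was -0.24.

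The genes for 16 subunits of the SIN3 corepressor (12 called in each response, beside 78.6% and 68.7% of all tested genes), through which MXD proteins and MNT repress, split evenly in WT (6 rose, 6 fell) and leaned lower in RA (3 rose, 9 fell). The interaction was positive for 2 and negative for 8, with a median of -0.21. Sap30, a SIN3 linker subunit, had an interaction of -0.79 (adjusted p = 5.65e-05), from 15.2 to 16.2 in the WT means and from 17.8 to 10.6 in the RA means. Ing1, which binds methylated histone, followed at -0.51 (adjusted p = 3.68e-05). Sin3b, a scaffold of the complex, rose in WT (0.78, adjusted p = 1.56e-11).

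Of the genes for 12 PRC1.6 subunits, which work with MGA, 3 rose and 7 fell in WT, and 2 rose and 7 fell in RA, with a median of -0.28 in WT and -0.20 in RA. Pcgf6, the Polycomb ring finger subunit specific to the complex, rose in WT (0.75, adjusted p = 6.36e-08), whereas L3mbtl2, another defining subunit, fell (-0.93, adjusted p = 1.69e-10). Of 14 germline genes known as targets of this complex, 6 passed the filter. Ddx4 and Taf7l did so only through starved libraries, so that a rise was fixed by the filter, and of the other 4 tested genes 2 rose (Zcwpw1 and Stag3) and 2 fell (Tdrkh and Sycp3) in WT. Ddx4, the germ cell helicase, had means of 0.106 and 1.59 in WT and 0.127 and 0.442 in RA before and after starvation. Taf7l, a germline form of a TFIID subunit, was at 0.213 and 2.55 in WT and at 0.0617 and 1.41 in RA. These levels stayed low in every library.

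Of 18 cofactors of MYC, 9 rose and 6 fell in WT, and 8 rose and 3 fell in RA. The interaction was positive for 2 and negative for 3, with a median of -0.02. The 15 called in WT and 11 in RA stood beside 78.6% and 68.7% of all tested genes, and the 5 called for the interaction beside 50.6%. Kat5, the TIP60 acetyltransferase that works in a complex with Pontin, was positive (0.56, adjusted p = 4.93e-05), as was Ruvbl1 (0.34, adjusted p = 0.00568). Reads of Ruvbl1 can come from the introduced transcript, so its interaction is not read as a response of the endogenous gene. Wdr5, a MYC binding protein of histone methylation complexes, was at -0.36 (adjusted p = 9.98e-05).

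Of 21 genes for MYC protein turnover, 8 rose and 7 fell in WT and 6 rose and 10 fell in RA, and the interaction was positive for 3 and negative for 10, with a median of -0.15, beside -0.01 for all tested genes. Usp36, a nucleolar deubiquitinase of MYC, rose in both lines (0.89 in WT and 0.50 in RA) with an interaction of -0.38 (adjusted p = 1.55e-04). The mitotic kinases Aurka and Plk1, which are known to stabilize MYC proteins, fell in both lines, and less so in RA (interactions 0.71 and 1.12, adjusted p = 1.21e-06 and 9.72e-06).

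A list of 40 genes that MYC is known to activate split in WT (18 rose, 17 fell) and leaned lower in RA (7 rose, 24 fell). In normal medium 6 were higher in RA and 0 lower by limma on the deposited values, beside 6.68% and 2.95% of all tested genes. This depended on the scaling, with 4 higher and 1 lower by median-ratio, and 2 higher and 1 lower by total-read or quantile scaling. Under starvation 26 were lower in RA and 0 higher by limma, at a median of -0.23, and 1 was higher with total-read scaling, quantile normalization or edgeR. The interaction was called negative for 29 and positive for 0, at a median of -0.26. With the first and second of these scalings 24 or 25 were called negative and 1 positive. Tfrc, the transferrin receptor, measured 172 ± 7.6 and 375 ± 16 in WT and 182 ± 10 and 209.5 ± 0.66 in RA before and after starvation (interaction -0.92, adjusted p = 5.54e-09). Pa2g4, a nucleolar growth regulator, had an interaction of -0.63 (adjusted p = 3.21e-08). Shmt2, of mitochondrial one-carbon metabolism, rose in both lines (1.603 in WT, adjusted p = 3.28e-15, and 1.24 in RA, adjusted p = 2.72e-13). Myc itself was higher in RA in both media.

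Of 15 genes known to be repressed by MYC, 14 passed the filter, and 6 rose and 8 fell in WT, while 7 rose and 5 fell in RA. In normal medium 5 were higher and 1 lower in RA, beside 6.68% and 2.95% of all tested genes. The number higher was 4 with median-ratio, total-read or quantile scaling. Under starvation 11 were higher and 2 lower. The interaction was positive for 10 and negative for 4, at a median of 0.57, and negative for 2 with total-read or quantile scaling. Thbs1, an inhibitor of blood vessel growth, fell from 2057 to 98.2 in the WT means and from 2553 to 1077 in the RA means (interaction 3.13, adjusted p = 1.59e-16). Cdkn1c, a cyclin kinase inhibitor, followed at 1.23 (adjusted p = 2.58e-07). Ndrg1 and Ddit3, both stress genes, rose in both lines, with interactions of -0.83 (adjusted p = 1.98e-09) and -0.46 (adjusted p = 5.37e-06). Sparc and Pdgfrb of this list are fibroblast genes, and the fibroblast marker sum was also higher in starved RA than in starved WT.

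Of 16 proliferation genes, 13 fell and 1 rose in WT and all 16 fell in RA, with medians of -2.08 and -1.55. The interaction was positive for 8 and negative for 6. Top2a and Ccnb1, of mitosis, were at 1.10 and 1.07 (adjusted p = 1.19e-10 and 5.03e-10), and the replication genes Mcm7 and Pcna were both at -0.69 (adjusted p = 5.18e-08 and 7.97e-08). Their summed values ran from 2680 to 2769 in normal medium, from 1097 to 1112 in starved WT and from 1006 to 1017 in starved RA, in which Mxd3 was also lowest. The part of this shift in the members' values was not tested.

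**Figure D4:**
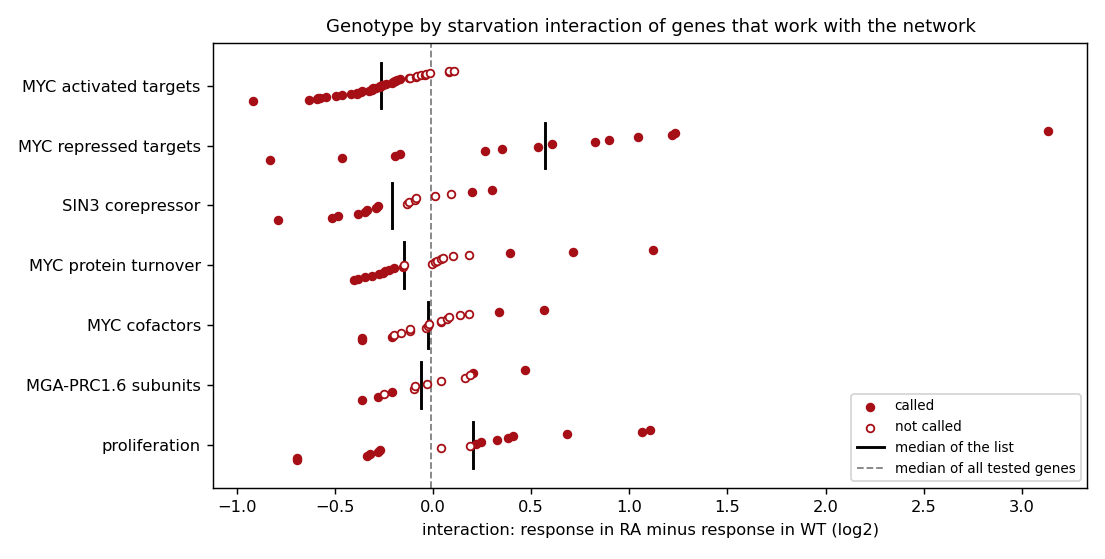
Interaction (response in RA minus response in WT, log2) of each tested gene of a list (points, spread vertically for display only). The lists shown are MYC activated and repressed targets, SIN3 corepressor, MYC protein turnover, MYC cofactors, PRC1.6 subunits and proliferation. The 40 MYC activated targets had a median of -0.26 and the 14 MYC repressed targets one of 0.57.

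The genes whose pattern over the 8 libraries was most like a member, by Pearson correlation of log2 (value + 1) among genes with a mean of at least 10, were Cpe for Myc (r = 0.998), Rpn2 for Max (0.998), Pdcd4 for Mxd1 (0.999), 2610020C07Rik for Mxd3 (0.999), Gm42846 for Mxd4 (0.992), Celf1 for Mxi1 (0.969), Mlxip for Mnt (0.997), Atg2b for Mga (0.994) and Wbp11 for Mycn (0.986). With 4 groups behind 8 points, such values mainly describe the order of the groups. Gm42846 is the antisense gene that shares exon bases with Mxd4.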

How the data were processed

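The authors sequenced paired-end TruSeq v2 polyA libraries, which do not mark strand, and mapped them to mm9 with TopHat2 2.0.9 (submitters' processing notes, which also list bedtools and edgeR). The read counter, annotation and any filter are not given in the sources used here. The authors deposited a signal per gene symbol, a read count divided by a scaled library size. Columns named minus and plus were read as normal medium and starvation. All nonzero values (100%) were whole reads within 0.05 read, and 78.2% to 80.5% of counts from 1 to 9 were even. Depth allows a floor of 3 reads, which covers counting error only. Coordinates come from a GRCm38 annotation, since no mm9 one was used here.

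The fit took genes whose value reached 1 in 2 or more samples and was made with limma 3.58.1 (R 4.3.3) on log2(value + 1), using group means, all 8 samples and a mean-variance trend. This replaces the count test of the study, because the table holds scaled values. edgeR 4.0.16 (quasi-likelihood) and DESeq2 1.42.0 on the recovered reads were alternatives. edgeR called 12705, 11114, 1555, 10194 and 8096 genes for the responses of WT and RA, RA against WT in normal medium and under starvation, and the interaction, against 12756, 11157, 1563, 10211 and 8207 by limma. The procedure was tested on simulated data. The members and lists were chosen with earlier results of these data known. Named from each list were genes with the 3 highest and 3 lowest WT responses and the 2 highest and 2 lowest interactions, except 2 genes that are not reported here. Same-numbered libraries deviated together with correlations between -0.008 and 0.157, so their numbers were not taken as pairs.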

Additional observations from a re-analysis of the deposited data

Results flagged for a closer look

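The responses to starvation differed between RA and WT cells, by limma's test of the interaction with adjusted p under 0.05, for 50.6% of all tested genes. The values below (log2, response in RA minus response in WT) are those of the members and, of each gene list, of the genes with the 2 highest and 2 lowest interactions that passed. They are therefore not all the listed genes that passed. Among the members these were Mnt at -1.02, Mxd1 at -0.78, Mxd4 at -0.72, Max at -0.43, Mxi1 at -0.35, Mxd3 at -0.26 and Mga at -0.22, and Myc is absent from them at 0.11.

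Among other genes for partners and cofactors these were Mycl at 1.34, Kat5 at 0.56, Ruvbl1 at 0.34, Mlx at -0.24, Mlxip at -0.36 and Wdr5 at -0.36. Reads of Ruvbl1 can come from the introduced Pontin transcript. Among genes for turnover of MYC they were Plk1 at 1.12, Aurka at 0.71 and Usp36 at -0.38. Among the corepressor and Polycomb genes they were Ring1 at 0.47, Rbbp7 at 0.30, Cbx3 at 0.21, Sap18 at 0.20, Hdac2 at -0.28, Ing1 at -0.51 and Sap30 at -0.79, with Ddx4 at -0.87 among the germline targets, a gene that passed the filter on low values only through starved WT.

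Among the 29 activated and 14 repressed targets of MYC that passed, they were Thbs1 at 3.13, Cdkn1c at 1.23, Ddit3 at -0.46, Pa2g4 at -0.63, Ndrg1 at -0.83 and Tfrc at -0.92. Among the 14 proliferation genes that passed, they were Top2a at 1.10, Ccnb1 at 1.07, Mcm7 at -0.69 and Pcna at -0.69.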

How the results depend on the processing

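No member's called difference changed sign under any alternative run. Of the alternative values of the members, 1007 kept their side of the threshold, 56 lost and 7 gained a call. The count of members called, here over all 9 with Mycn, whose fall was fixed by the filter, moved as follows. For the response in RA it was 3, against 8, at an adjusted p under 1e-05. For RA against WT in normal medium it was 0, against 1, at that threshold. For RA against WT under starvation it was 4, against 8, there. For the interaction it was 2 there, against 7, and 4 at an adjusted p under 0.01, 4 with no filter on low values and 4 without the mean-variance trend. Without 1 library at a time the counts were 7 to 8 for the WT response, 7 to 8 for the RA response, 1 in normal medium, 8 under starvation and 4 to 6 for the interaction, lowest without starved RA replicate 1.

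With the replicate number as a block, limma called the same numbers of members (8, 8, 1, 8 and 7) as without pairing. edgeR with the replicate block, added after seeing the data, called 2 members in normal medium, Myc and Mxd4 (-0.17, adjusted p = 0.0347), and an interaction for Myc (adjusted p = 0.0491). For Mycn, RA exceeded WT under starvation with DESeq2 (1.79, adjusted p = 0.0472) and with a pseudocount of 0.1. The other 22 of the 24 alternatives, edgeR included, left this difference uncalled. It rested on 0 and 6 reads in starved WT and 10 in each starved RA library.

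The ratio of Myc and Mycn to the antagonists per kilobase moved with the length of the longest coding transcript, also added after seeing the data, to 0.902 in WT in normal medium, 1.93 in starved WT, 1.25 in RA in normal medium and 4.34 in starved RA. Without 1 library it ran from 1.31 to 1.36, from 2.46 to 2.57, from 1.81 to 1.88 and stayed at 5.88. Stricter thresholds and fewer libraries lower counts by construction, and the cause of the other changes was not tested. Depth limits Mycn, at 0 to 10 reads under starvation, and 2 libraries a group limit every estimate of spread.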

Other observations

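Pvt1, the noncoding gene next to Myc, was looked up after the values of Myc were seen. It measured 30.7 and 30.6 in unstarved WT, 39.6 and 40.8 in starved WT, 31.6 and 33.1 in RA in normal medium, and 52.4 and 52.8 in starved RA. The 2 lines were close in normal medium, and starved RA was the highest group. Pvt1 rose by 0.38 in WT (adjusted p = 3.2e-06, limma) and by 0.69 in RA (adjusted p = 3.4e-09), with an interaction of 0.30 (adjusted p = 0.0025). In normal medium, where Myc was higher in RA, Pvt1 differed by 0.08 (adjusted p = 0.39).

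Fbxo32, a ubiquitin ligase subunit raised in wasting muscle and known to act on MYC protein, was higher in RA than in WT in both media. Its values were 5.28 and 6.13 in unstarved WT, 11.6 and 11.4 in starved WT, 9.38 and 9.42 in RA in normal medium, and 19.4 and 17.7 in starved RA. The 4 groups did not overlap and stood in the same order as those of Myc. The starvation responses were 0.90 in WT and 0.91 in RA, and their difference of 0.01 did not pass the test (adjusted p = 0.96).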
